A study of Mus musculus with 38 samples.

Results

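The 10 genes described here are targets or nuclear effectors of the canonical Wnt pathway: *Lef1*, *Tcf7* and *Tcf7l1*, *Axin2* and *Nkd1*, *Wnt8a*, and *Sp5*, *T*, *Cdx1* and *Cdx2*. They are textbook targets and members of the pathway, taken by symbol, and make up 10 of the 23481 genes in the bulk and single-cell count tables. All 10 were found in each of the 3 kinds of table.

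E14 mouse embryonic stem cells (mESCs), an established line, were grown in 2i/L, a basal N2B27 medium with the MEK inhibitor PD0325901, the GSK3 inhibitor CHIR99021, LIF and additional insulin. Differentiation was started by exchanging this medium for N2B27 with all-trans retinoic acid (RA) at 0.25 µM. Both inhibitors, LIF and the additional insulin were left out from then on and RA was present throughout. Removal of the GSK3 inhibitor, of the MEK inhibitor, of LIF and of the additional insulin and addition of RA therefore coincided in every comparison with mESCs, and their effects cannot be told apart. Bulk RNA-seq, in which 3′ ends are counted by unique molecular identifiers (UMIs), covered 25 libraries. These were 2 mESC libraries, 1 library at each of 6, 12, 24, 36, 48, 60, 72, 84 and 96 h of RA, 4 fractions of PDGFRA- cells split by quartiles of CD24 staining at 48 h (Q1 to Q4), 3 such fractions split by terciles at 72 h (T1 to T3), 1 PDGFRA+ CD24- fraction at 72 h, 2 libraries of sorted ectoderm-like cells (PDGFRA- CD24+) and 2 of sorted XEN-like cells (PDGFRA+ CD24-, extraembryonic endoderm) at 96 h, and 1 library from each of the long-term cultures, the ectoderm-like one sampled at passage 5 and the XEN-like one at 3 weeks, both kept in N2B27 with EGF and FGF2. Single cells were profiled by SCRB-seq, a plate method with UMIs, on 9 plates from 0 to 96 h, and by SMART-seq2, which reads whole transcripts, at 0, 12, 24 and 48 h, with 1 culture at each time.

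In the canonical Wnt pathway, GSK3 in a complex scaffolded by Axin marks β-catenin for destruction. Wnt ligands, or an inhibitor of GSK3 such as CHIR99021, stop this, and β-catenin then binds TCF/LEF factors on DNA and switches target genes on. In mESCs one of these factors, TCF7L1 (also called TCF3), acts mainly as a repressor of pluripotency genes, and β-catenin relieves that repression, which is why GSK3 inhibition is part of 2i. *Axin2*, *Nkd1* and *Sp5* are classical direct targets, and *T*, *Cdx1* and *Cdx2* are Wnt targets of the primitive streak and posterior embryo.

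TCF/LEF factors recognise a site whose core reads CTTTGA, or TCAAAG on the other strand. Promoter windows of 250 bases before a transcript start, from RefSeq on GRCm38.p6, were available for 8 of the 10 genes, with 12 windows in all since some genes have several starts. Both strands were searched, and the letters do not allow matches to overlap. The core was found in 3 of the 12 windows, 1 each of *Sp5*, *Lef1* and *T*. Of all 32851 windows of that length, 13.8% held it and 1.37% held 2 or more. The 3 windows with a match are printed below in the gene's direction with the core in capitals, followed by *Axin2* as a responding gene whose window has no match. The last base of each window is the one before the transcript start.

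Sp5, chr2:70474673-70474922, plus strand: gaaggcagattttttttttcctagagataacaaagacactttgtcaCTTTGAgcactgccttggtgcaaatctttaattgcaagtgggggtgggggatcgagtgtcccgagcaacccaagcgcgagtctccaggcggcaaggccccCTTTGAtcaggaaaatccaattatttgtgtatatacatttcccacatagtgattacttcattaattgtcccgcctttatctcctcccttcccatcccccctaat
Lef1, chr3:131156044-131156293, plus strand: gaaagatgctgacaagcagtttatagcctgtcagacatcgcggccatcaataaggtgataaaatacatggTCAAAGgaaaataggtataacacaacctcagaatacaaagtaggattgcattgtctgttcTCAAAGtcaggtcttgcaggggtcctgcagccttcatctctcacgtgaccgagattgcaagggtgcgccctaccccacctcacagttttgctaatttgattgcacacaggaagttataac
T, chr17:8434173-8434422, plus strand: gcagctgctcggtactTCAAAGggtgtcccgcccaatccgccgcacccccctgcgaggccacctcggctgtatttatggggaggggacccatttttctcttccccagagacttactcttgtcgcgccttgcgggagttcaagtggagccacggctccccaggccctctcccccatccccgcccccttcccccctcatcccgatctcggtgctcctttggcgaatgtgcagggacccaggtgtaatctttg
Axin2, chr11:108920099-108920348, plus strand: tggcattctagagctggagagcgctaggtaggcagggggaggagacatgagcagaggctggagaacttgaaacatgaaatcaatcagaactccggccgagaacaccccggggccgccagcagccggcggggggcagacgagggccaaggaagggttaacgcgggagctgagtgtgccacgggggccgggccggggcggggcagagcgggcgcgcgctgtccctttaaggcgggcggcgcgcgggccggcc

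In *Sp5* the 2 matches began 204 and 104 bases before the start, in *Lef1* 180 and 120 bases, and in *T* 234 bases. The *Lef1* window belongs to a start inside the gene as GENCODE draws it (chromosome 3, 131110471 to 131224356, plus strand), and the other 3 *Lef1* windows held no match. The *Sp5* window ends just before the first base of the annotated gene (chromosome 2, 70474923 to 70477729, plus strand), as do those of *T* (chromosome 17, 8434423 to 8442496) and *Axin2* (chromosome 11, 108920349 to 108950783). A match in letters is a description and not a measured binding site.

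The 25 bulk libraries held 1063830 to 2459483 UMIs. The summed level of 11 XEN markers was 6665 to 12049 UMIs scaled to a common library total (CPM) in the sorted XEN-like libraries, against 485 to 1779 CPM in the sorted ectoderm-like ones and 197 to 281 CPM in mESCs. For 11 ectoderm markers the sums were 323 to 611, 2803 to 3270 and 192 to 213 CPM in the same order. Each sorted type thus led in its own markers. Of 12 pluripotency markers the sorted XEN-like libraries held *Dppa5a* at 5947 and 4351 CPM, against 494 and 273 CPM in ectoderm-like cells and 10993.5 and 15849 CPM in mESCs, and the other 11 summed to 319 and 172 CPM, against 297 and 159 CPM and 2442 and 2504 CPM. All 12 fell in XEN-like cells against mESCs by edgeR. SCRB-seq gave 2448 cells above 2000 UMIs out of 3456 wells, 137 to 335 per plate with a median of 3559.5 to 5069 UMIs per plate. All 384 well names recurred on every plate, so cells are told apart by plate and well, and the few wells above 20000 UMIs held 6.99% to 29.5% of a plate's UMIs. SMART-seq2 gave 82, 86, 89 and 82 cells at 0, 12, 24 and 48 h. In bulk libraries, fewer cells expressing a gene and less RNA per cell cannot be told apart.

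The 2 mESC libraries differed in several of the 10 genes, and this bears on every bulk ratio to mESCs. *Axin2* stood at 4.81 CPM (11 UMIs) in mESC replicate 1 and at 21.8 CPM (50 UMIs) in replicate 2, a ratio of 4.52 with an exact 95% interval of 2.32 to 9.63. *Sp5* stood at 3.94 CPM (9 UMIs) and 20.5 CPM (47 UMIs), a ratio of 5.20 (2.52 to 12.1), and *Lef1* at 0 and 21 UMIs. *Cdx1* did not differ detectably, at 21.9 and 21.3 CPM, a ratio of 0.975 (0.644 to 1.48), nor did *Tcf7l1*, at 21.9 and 15.7 CPM, a ratio of 0.716 (0.453 to 1.12). By a rule of at least 2-fold with at least 20 UMIs in both libraries together, 3 of the 5 measurable genes were higher in replicate 2. Of all 7896 genes so measured 6.34% were, but these 3 reached 20 UMIs only through replicate 2, so the shares are not compared. Since the libraries differed, the 2-fold rule is applied with each as the reference. Summed ratios of *Axin2*, *Sp5*, *Cdx1*, *Tcf7l1* and *Lef1* at 6 to 24 h are given to each. The summed level of 7 RA-induced genes was 34.4 to 50.7 CPM in the 2 mESC libraries and 86.5 to 835 CPM at 6 to 24 h. Intervals on single libraries and plates cover counting error only.

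In the bulk time course *Cdx1* and *Sp5* were lower over 6 to 24 h than in either mESC library, *Axin2* was detectably lower than replicate 2 alone, *Lef1* was nearly absent at 6 and 12 h, and *Tcf7l1* did not differ detectably. *Axin2* encodes a scaffold of the destruction complex and so limits the pathway that induces it. Its level was 2.93, 2.20 and 2.49 CPM at 6, 12 and 24 h, 3.03 and 2.85 CPM at 36 and 48 h, 2.40 and 5.45 CPM at 60 and 72 h, and 3.11 and 3.59 CPM at 84 and 96 h. Every one of these 9 libraries but the one at 72 h lay below both mESC libraries. Summed over 6 to 24 h there were 16 UMIs against 61 in the 2 mESC libraries, a ratio of 0.190 (0.102 to 0.334). Against replicate 1 alone the ratio was 0.526 (0.229 to 1.25), which counting error could give, and against replicate 2 it was 0.116 (0.0618 to 0.208).

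*Sp5* encodes a zinc-finger repressor that dampens Wnt target genes. It was read by 2, 0 and 1 UMIs at 6, 12 and 24 h, by 0 and 1 at 36 and 48 h, and by 3, 8, 4 and 7 at 60, 72, 84 and 96 h. The level was thus 0.98 CPM at 6 h, 0 to 0.50 CPM from 12 to 48 h, and 1.80 to 4.36 CPM from 60 h on, when it again reached the level of mESC replicate 1 at 72 h. The ratio of the summed 6 to 24 h libraries to both mESC libraries was 0.0388 (0.00777 to 0.119), that to replicate 1 was 0.121 (0.0210 to 0.483) and that to replicate 2 was 0.0232 (0.00462 to 0.0721).

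The homeobox gene *Cdx1*, a posterior patterning factor, stepped down over 24 h and stayed low. Its levels were 9.78 CPM at 6 h, 7.93 CPM at 12 h, 1.49 CPM at 24 h, 0.61 CPM at 36 h, 2.85 CPM at 48 h and 0.60 and 0.54 CPM at 60 and 72 h, with no UMI at 84 or 96 h. The ratio over 6 to 24 h was 0.300 (0.203 to 0.436), with 0.296 and 0.304 to replicates 1 and 2, and that over 60 to 96 h, with 2 UMIs against 99, was 0.0125 (0.00150 to 0.0465). *Cdx1*, in which the mESC libraries matched, was lower than either reference at 6, 12, 24 and 96 h by the rule above. Besides it only *Tcf7l1* was measurable against replicate 1 at these times, so the other members could not meet the rule there.

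*Lef1*, a TCF/LEF factor that mostly activates and is itself induced by the pathway, was low at 6 and 12 h and higher at 24 to 48 h. It was read by 1 and 0 UMIs at 6 and 12 h and then stood at 5.48, 8.47 and 4.88 CPM at 24, 36 and 48 h and at 1.02 to 2.72 CPM from 60 to 96 h. The 36 h library was close to the 9.14 CPM of mESC replicate 2, and replicate 1 held none. Summed over 6 to 24 h *Lef1* had 12 UMIs, a ratio to both mESC libraries of 0.414 (0.186 to 0.882). The ratio to replicate 2 was 0.208 (0.0931 to 0.442), and that to replicate 1 was at least 1.00 by the exact interval, so the direction turned with the reference. *Tcf7*, another such factor, was near the limit of detection throughout, at 0 to 2.44 CPM.

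*Tcf7l1*, the repressor of the family, was read in all 25 libraries, at 14.7 to 28.9 CPM over the 9 time points and 21.9 and 15.7 CPM in mESCs. The ratio of the summed 6 to 24 h libraries to both mESC libraries was 1.21 (0.916 to 1.59), with 1.03 (0.744 to 1.46) to replicate 1 and 1.44 (0.996 to 2.14) to replicate 2, and that of 60 to 96 h was 0.975 (0.738 to 1.29).

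Among the remaining members, the feedback inhibitor *Nkd1*, a Dishevelled-binding protein, was read by 2 and 0 UMIs in mESCs, 2 UMIs in all from 6 to 24 h and 13 UMIs from 60 to 96 h, a ratio of 4.04 (0.914 to 36.8) that counting error alone could give. *T* (Brachyury), the mesoderm factor, was read by 1 and 5 UMIs in mESCs, 2 UMIs at 6 h and none in the 8 later time points. *Cdx2*, of trophectoderm and posterior embryo, was read by at most 3 UMIs in any library. The ligand gene *Wnt8a* had no UMI in the bulk mESC libraries and was read by 2 UMIs at 48 h and 1 UMI at 72 h.

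By the 2-fold rule, with mESC replicate 1 as the reference only *Cdx1* and *Tcf7l1* were measurable at 6, 12, 24 and 96 h, and *Cdx1* was lower at each. All genes gave 3.85%, 4.31%, 6.13% and 8.47% lower at these times. With replicate 2 as the reference 5 members were measurable, and *Lef1*, *Axin2*, *Sp5* and *Cdx1* were lower at 6, 12 and 96 h, 4 of 5, where all genes gave 7.72%, 9.18% and 8.9%. At 24 h 3 of 5 were lower, without *Lef1*, where all genes gave 8.7%. At these times *Lef1*, *Axin2* and *Sp5* reached 20 UMIs only through mESC replicate 2, where they are high. Nothing is therefore read from these counts against the shares over all genes. Of the members measurable at each of the 9 time points, none was 2-fold higher than either reference. *Lef1* was never measurable against replicate 1, with 0 UMIs there and 11, 14 and 12 UMIs at 24, 36 and 48 h.

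**Figure D1:**
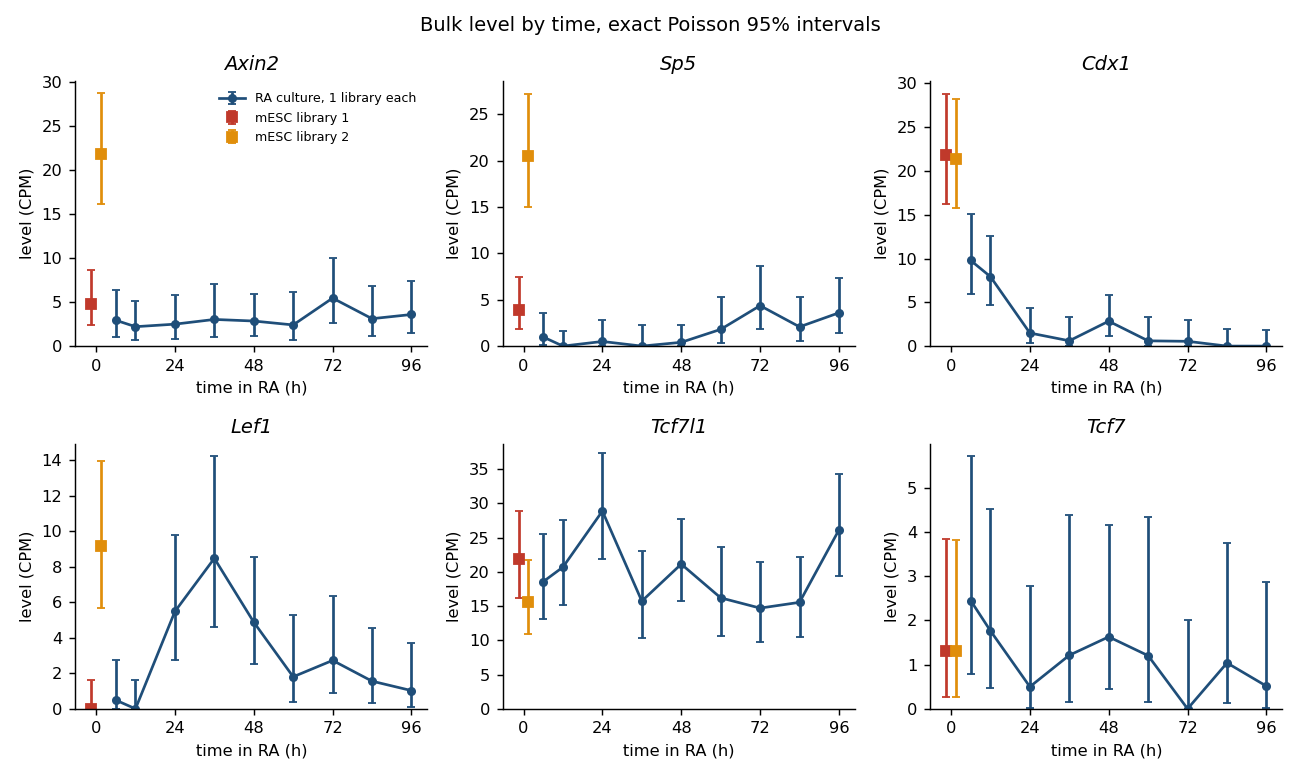
Level in CPM of 6 members against hours in RA in the bulk time course, with 1 library per point, the 2 mESC libraries as squares, and exact Poisson 95% intervals for counting error. mESC replicate 2 stands above all later points for Axin2 and Sp5 and replicate 1 does not, Cdx1 is alike in both and lower at every later time, Lef1 is highest among the RA time points at 36 h with 8.47 CPM, and Tcf7l1 stays between 14.7 and 28.9 CPM.

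SCRB-seq had 1 plate per time point. *Sp5* and *Axin2* were again lower from 6 to 48 h, and *Sp5* was near its 0 h level at 60 and 72 h. *Sp5* was summed to 105 UMIs over 282 cells at 0 h, 0.557 per 10000 UMIs (0.456 to 0.675), to 13 UMIs at 6 h and to none at 12 or 24 h. Against 0 h it was 0.0899 times as high at 6 h (0.0464 to 0.161) and at least 28.5-fold lower at 12 h by the exact interval. It stayed at 1 and 2 UMIs at 36 and 48 h and then stood at 77 and 63 UMIs at 60 and 72 h, with ratios to 0 h of 0.803 (0.590 to 1.09) and 0.864 (0.622 to 1.19), before 4 UMIs at 96 h. The 25 cells with *Sp5* at 72 h were 25 of 235, and the highest single cell held 19.05% of the UMIs.

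*Axin2* was summed to 93 UMIs at 0 h, 26 at 6 h, 14 at 12 h and 2 at 24 h, and to 17 to 36 UMIs at each later time. Its level was 0.494 per 10000 UMIs at 0 h (0.398 to 0.605), 0.1003 at 6 h (0.0655 to 0.147) and 0.0131 at 24 h (0.00158 to 0.0472), the lowest of the series. It stood at 0.275 at 72 h (0.193 to 0.381), 0.557 times the level at 0 h. At 0 h, 57 of 282 cells had *Sp5*, 56 had *Axin2* and 26 had both. Such overlaps depend on the depth of each cell and are given without a test.

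*Cdx1* went the other way from bulk at 6 h. It had 27 UMIs at 0 h and 81 at 6 h, 0.143 and 0.312 per 10000 UMIs, a ratio of 2.18 (1.39 to 3.51), then 34, 20 and 40 UMIs at 12, 24 and 36 h, 4 at 48 h, 22 at 60 h and none at 72 or 96 h. Without the wells above 20000 UMIs, which left 51 of the 81 UMIs at 6 h, the rule of 2-fold was no longer met, nor was it with each cell weighted equally. *Tcf7* stood at 5 UMIs at 0 h and 46 at 6 h, a ratio of 6.68 (2.67 to 21.6), and at 4 UMIs at 12 h. As a log2 ratio the 6 h value was 2.74, and it was 1.61 with each cell weighted equally, 2.09 without the wells above 20000 UMIs and 3.76 with a higher UMI limit for wells. The bulk library at 6 h held 5 UMIs of *Tcf7* against 3 in each mESC library.

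*Lef1* was low at 6 and 12 h as in bulk, with 13, 6, 1 and 16 UMIs at 0, 6, 12 and 24 h. It had 52 UMIs at 36 h, a ratio of 3.08 to 0 h (1.66 to 6.18). Its later levels went against bulk, with 3 UMIs at 48 h, a ratio of 0.272 (0.0497 to 0.989), and its highest level at 96 h, 0.275 per 10000 UMIs with a ratio of 3.99 (1.89 to 8.73). *Nkd1* and *Wnt8a* were seen mainly at 36 h, with 17 and 18 UMIs. At 36 h *Wnt8a* was in 13 of 334 cells, of which 6 also had *Lef1* and 5 also had *Nkd1*, while *Lef1* was in 9.88% and *Nkd1* in 4.19% of all cells there. *Wnt8a* had no UMI at 0 h.

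*Tcf7l1* was again the most often counted at 6 and 12 h, with 173 and 131 UMIs against 102 at 0 h, ratios of 1.23 (0.959 to 1.59) and 1.26 (0.967 to 1.65). From 36 h on it was lower than at 0 h, unlike in the bulk time course. It stood at 0.311 per 10000 UMIs at 36 h and 0.219 at 48 h against 0.541 at 0 h. The ratio at 36 h was 0.575 (0.421 to 0.781). *T* had 10 UMIs at 0 h, 4 at 6 h and none from 12 to 60 h, then 17 UMIs at 72 h in 8 of 235 cells, of which 1 also had *Sp5*. *Cdx2* had at most 5 UMIs on any plate.

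The 2-fold rule could be applied to 5, 4 and 5 members at 6, 12 and 24 h, of which 2, *Axin2* and *Sp5*, were lower each time, where all genes gave 19.1%, 20.1% and 24.9%. At 6 h 2 members, *Tcf7* and *Cdx1*, were higher, where all genes gave 12.5%. These background shares are larger than in bulk, and a plate has no replicate. *Sp5* at each time and *Axin2* at 12 and 24 h reached 20 UMIs only through 0 h, and *Tcf7* only through 6 h. Nothing is therefore read from these counts against the shares over all genes.

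**Figure D2:**
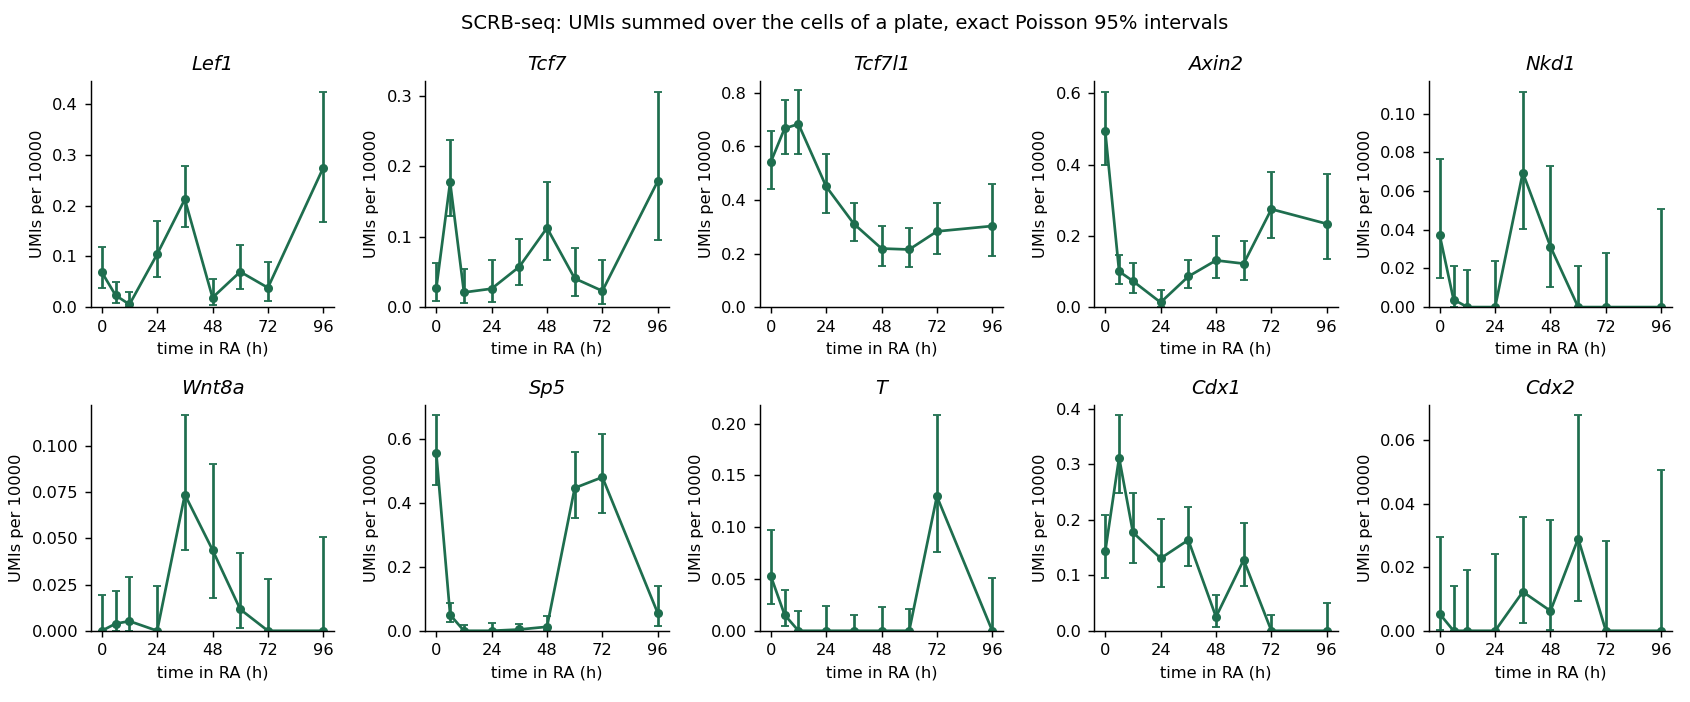
SCRB-seq level of the 10 members against hours in RA, as UMIs summed over the cells of a plate per 10000 UMIs, with exact Poisson 95% intervals that cover counting error. Axin2 and Sp5 stand at 0.494 and 0.557 at 0 h and at 0.0131 and 0 at 24 h, Sp5 stands again at 0.448 and 0.481 at 60 and 72 h, and Wnt8a and Nkd1 are highest at 36 h.

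SMART-seq2 gave the share of cells with each member, and *Sp5* went from nearly every cell at 0 h to hardly any at 12 h. Values are RPKM scaled to 1 total per cell, the median over 0 h cells. A cell was counted as having a gene above 1 normalized RPKM. At 0 h *Sp5* was above 1 in 76 of 82 cells, at 12 h in 2 of 86, at 24 h in 0 of 89, which allows up to 4.06% by the exact interval, and at 48 h in 13 of 82. Its mean was 37.2, 0.862, 0 and 7.56 normalized RPKM at these times. *Axin2* was above 1 in 67, 17, 17 and 21 cells, with means of 29.2, 6.21, 7.66 and 8.86 normalized RPKM. Both genes together were above 1 in 64 cells at 0 h and in 2, 0 and 2 cells later.

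*Cdx1* had the highest mean of the 10 at 0 h, 73.9 normalized RPKM with 80 of 82 cells above 1. It then stood at 19.4, 17.2 and 13.7 normalized RPKM, with 46, 41 and 18 cells above 1. It was thus lower at 12 h, as in bulk, where the SCRB-seq ratio was 1.24 (0.725 to 2.13). At 48 h 1 cell with 534 normalized RPKM carried much of the mean. *T* went from 27 cells above 1 at 0 h to 1, 1 and 0, and *Cdx2* from 24 to 0, 1 and 5. Both genes were thus seen in a minority of the cells grown in 2i/L and in hardly any later.

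*Lef1* was above 1 in 44 of 82 cells at 0 h, in 13 of 86 at 12 h, in 40 of 89 at 24 h and in 23 of 82 at 48 h, with means of 18.7, 7.55, 16.3 and 12.0 normalized RPKM. The dip at 12 h and the return at 24 h were thus seen in all 3 assays, where mESC replicate 2 is the bulk reference. *Tcf7* stood at 20.3, 13.8, 16.3 and 7.77 normalized RPKM, with 50, 33, 35 and 20 cells above 1. *Tcf7l1* was above 1 in 81, 80, 85 and 60 cells, with means of 31.96, 31.4, 35.3 and 26.6 normalized RPKM.

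*Nkd1* was above 1 in 14, 2, 3 and 13 cells. *Wnt8a* was above 1 in 6, 7 and 10 cells and then in 25 of 82 at 48 h, where its mean of 19.1 normalized RPKM was 6.23 times that at 0 h. At 48 h it was above 1 in 1 of the 11 cells with *Pdgfra*, a XEN marker, and in 24 of the 71 without, 9.09% (exact interval 0.230% to 41.3%) and 33.8% (23% to 46%). *Sp5* was above 1 in 0 of these 11, which allows up to 28.5% by the exact interval, and in 13 of the 71. With cells of 1 culture, neither difference has a test.

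Of the 10 members 7 were at least 2-fold lower at 12 h, where all 15255 genes compared gave 6.88%. The 7 were *Lef1*, *Axin2*, *Nkd1*, *Sp5*, *T*, *Cdx1* and *Cdx2*. At 24 h 6 were lower, the same but for *Lef1*, where all genes gave 7.97%. At 48 h 6 were lower, with *Tcf7* in and *Nkd1* and *Lef1* out, where all genes gave 10.3%, and *Wnt8a* alone was higher, where all genes gave 25%. *Nkd1*, *Sp5*, *T* and *Cdx2* had means under 1 at 12 h, as had *Sp5* and *T* at 24 h and *T* at 48 h. They met the minimum mean of 1 only through 0 h. Nothing is therefore read from these counts against the shares over all genes. The scaling moved the median log2 ratio of all genes from -0.0042 to 0.18 at 12 h and from 0.10 to 0.20 at 48 h, and the same members met the rule without it. With means of log2 values and a pseudocount of 1 *Nkd1* did not meet the rule at 12 or 24 h, and with a pseudocount of 1 or 0.1 *Lef1* and *Tcf7l1* also met it at 48 h, 8 members in all. The median cell had 6 members above 1 at 0 h and 2, 3 and 2 later, and 47 of 82 cells had 6 or more at 0 h while 0 of 86, 89 and 82 did later. The median number of genes of any kind above 1 was 7265 at 0 h and 7390.5, 7561 and 7431.5 at the later times.

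**Figure D3:**
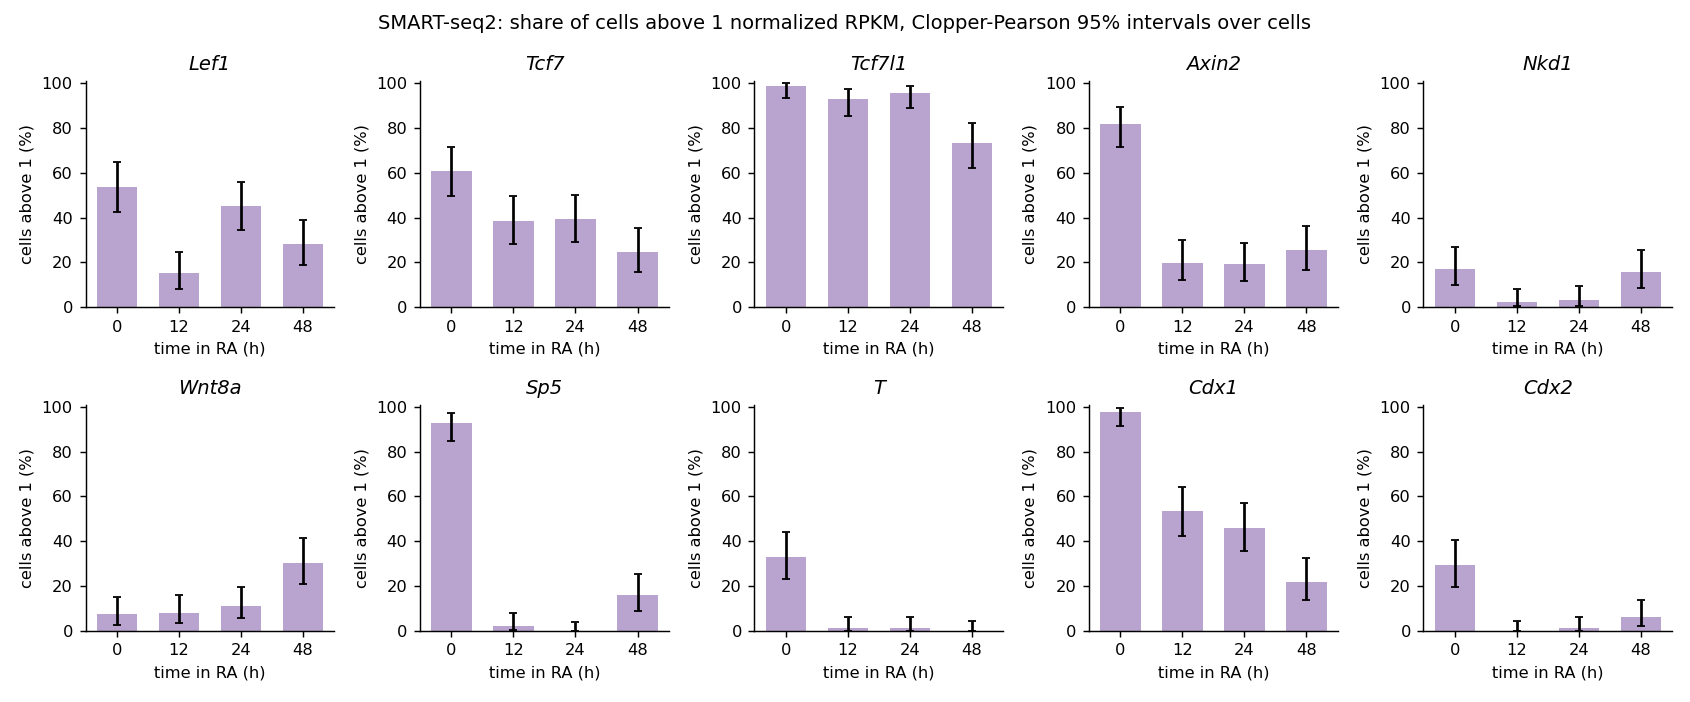
Share of SMART-seq2 cells above 1 normalized RPKM for each member at 0, 12, 24 and 48 h of RA, in percent, with Clopper-Pearson 95% intervals over the cells of 1 culture each. Sp5 goes from 92.7% to 2.33% and 0%, Cdx1 from 97.6% to 53.5% at 12 h, Tcf7l1 is lowest at 48 h with 73.2%, and Wnt8a reaches 30.5% at 48 h.

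**Figure D4:**
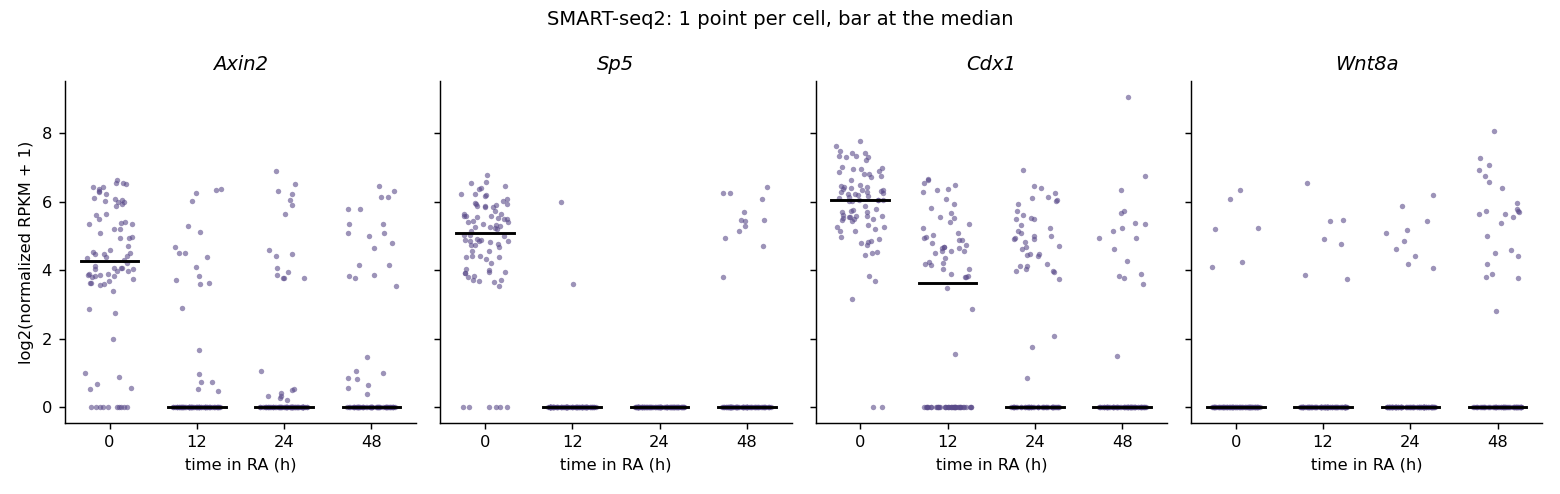
Each point is a SMART-seq2 cell, with its log2(normalized RPKM + 1) for 4 members against hours in RA and a bar at the median. At 0 h nearly all cells have Sp5 and Cdx1, while Axin2 is spread between 0 and 98.8 normalized RPKM. At 48 h the cells with Wnt8a or Sp5 are a minority with levels as high as those of earlier cells.

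Fractions sorted during the time course gave levels of members by PDGFRA and CD24 staining. At 48 h *Wnt8a* was read by 7, 8, 5 and 5 UMIs in the PDGFRA- fractions Q1 to Q4, 4.68, 5.71, 4.70 and 3.16 CPM, against 0.81 CPM in the unsorted 48 h library. *Lef1* stood at 8.69, 8.57, 8.46 and 4.42 CPM and *Cdx1* at 4.68, 4.28, 1.88 and 1.26 CPM in the same fractions. The lowest of the 4 was fraction Q4 for each of the 3 genes, though the intervals of Q4 and Q1 overlapped. *Tcf7l1* stood at 8.03, 5.71, 2.82 and 7.58 CPM in Q1 to Q4. All 4 lay below the 21.1 CPM of the unsorted 48 h library. With 1 library each, the effect of sorting and other differences between fractions and the unsorted library cannot be told apart, for *Wnt8a* as for *Tcf7l1*.

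At 72 h the PDGFRA+ CD24- fraction, with 1360644 UMIs, held 11 UMIs of *Tcf7l1* (8.08 CPM) and none of the 9 other members. *Sp5* was read by 0, 5 and 7 UMIs in the PDGFRA- fractions T1, T2 and T3, 0, 4.41 and 5.37 CPM. *Axin2* stood at 3.11, 7.06 and 2.30 CPM and *Lef1* at 4.66, 5.29 and 2.30 CPM there. Against these 0 UMIs the 3 PDGFRA- fractions together held 15 UMIs each of *Axin2* and *Lef1* and 12 of *Sp5*. By the exact interval the ratio of the PDGFRA+ fraction to them was at most 0.763 for *Axin2* and *Lef1* and 0.985 for *Sp5*. *Tcf7l1*, at 13.2, 10.6 and 3.07 CPM in T1, T2 and T3, did not differ detectably, with a ratio of 0.912 (0.416 to 1.85).

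The sorted cells at 96 h allowed a test, edgeR's quasi-likelihood test on 2 libraries per group with Benjamini-Hochberg adjustment over 8947 genes. Only 5 members passed the filter on low counts: *Lef1*, *Tcf7l1*, *Axin2*, *Sp5* and *Cdx1*. *Cdx1* had 50 and 49 UMIs in mESCs and none in any of the 4 sorted libraries, so that it passed the filter through mESCs alone. It was at least 24.1-fold lower in ectoderm-like and at least 22.1-fold lower in XEN-like cells, with 3 UMIs over a group as the bound. edgeR called it lower in both, with the filter and without it.

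*Sp5* stood at 8.89 and 5.81 CPM in ectoderm-like cells, 0 and 0.91 CPM in XEN-like cells and 3.94 and 20.5 CPM in mESCs. Its XEN-like libraries lay below all others. Against mESCs the log2 fold change was -5.18 (SE 1.21, adjusted p = 0.00962, edgeR) in XEN-like and -1.05 (SE 0.71, adjusted p = 0.343, edgeR) in ectoderm-like cells. The direct contrast of XEN-like with ectoderm-like cells gave -4.13, adjusted p = 0.0671 (edgeR), short of the threshold of 0.05.

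*Axin2* followed the same order, at 9.45 and 3.88 CPM in ectoderm-like cells and 1.52 and 1.82 CPM in XEN-like cells. Against mESCs the log2 fold change was -3.21 (SE 0.87, adjusted p = 0.0206, edgeR) in XEN-like and -1.31 (SE 0.68, adjusted p = 0.210, edgeR) in ectoderm-like cells, and XEN-like against ectoderm-like cells gave -1.91, adjusted p = 0.233 (edgeR). *Lef1* was read by 4 and 10 UMIs in ectoderm-like and by none in XEN-like libraries, at least 3.04-fold lower in the latter by the exact interval for counting error. The edgeR adjusted p was 0.181 for that contrast and 0.0942 against mESCs.

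*Tcf7l1* passed in no contrast, at 15.6 and 14.9 CPM in ectoderm-like and 19.3 and 5.47 CPM in XEN-like cells, with adjusted p from 0.272 to 0.898 (edgeR). The remaining 5 members were too sparse to test. *Nkd1* had 1 and 5 UMIs in ectoderm-like and 1 and 0 in XEN-like libraries, *Tcf7* 4 and 2 against 0 and 1, *Cdx2* 1 and 3 against 2 and 1, *Wnt8a* 1 and 0 against 0 and 1, and *T* none against 0 and 1.

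Against mESCs edgeR called 1 of the 5 lower in ectoderm-like cells, *Cdx1*, where 9.3% of all genes fell, and 3 lower in XEN-like cells, *Cdx1*, *Sp5* and *Axin2*, where 10.5% fell. Since *Cdx1* passed the filter only through mESCs, where it is high, nothing is read from these counts against the shares over all genes. Between XEN-like and ectoderm-like cells 0 passed by edgeR or by DESeq2 and 2, *Lef1* and *Sp5*, had an unadjusted p under 0.05 by edgeR, where 6.99% of all genes were higher and 5.74% lower in XEN-like cells. By edgeR 0 were higher than in mESCs, at an unadjusted p under 0.05 or adjusted, and 0 by DESeq2, where ectoderm-like cells had 9.85% of all genes higher and XEN-like cells 12.3%. The calls leaned on the mESC libraries: without mESC replicate 1, *Axin2* (adjusted p = 0.0215) and *Sp5* (0.0448) also fell in ectoderm-like cells by edgeR, and *Sp5* (0.0105) and *Lef1* (0.0396) were lower in XEN-like than in ectoderm-like cells. Without mESC replicate 2 the fitted change of *Axin2* in ectoderm-like cells was 0.18 (adjusted p = 0.908, edgeR), and only *Cdx1* was called in XEN-like cells against mESCs. Without XEN-like replicate 1 again only *Cdx1* was called there, and without replicate 2 there were 2 members.

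The long-term cultures, 1 library each, kept few members. The ectoderm-like culture held *Tcf7l1* at 20.9 CPM and *Lef1* at 6.96 CPM (13 UMIs), 1 UMI each of *Axin2* and *Nkd1*, and none of the other 6. The XEN-like culture held *Tcf7l1* and *T* at 2.76 CPM each (4 UMIs each), 2 UMIs of *Axin2* and 1 of *Cdx2*, and none of the other 6. Its 4 UMIs of *T* are the only ones of that gene after 6 h in bulk besides 1 in sorted XEN-like replicate 2.

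**Figure D5:**
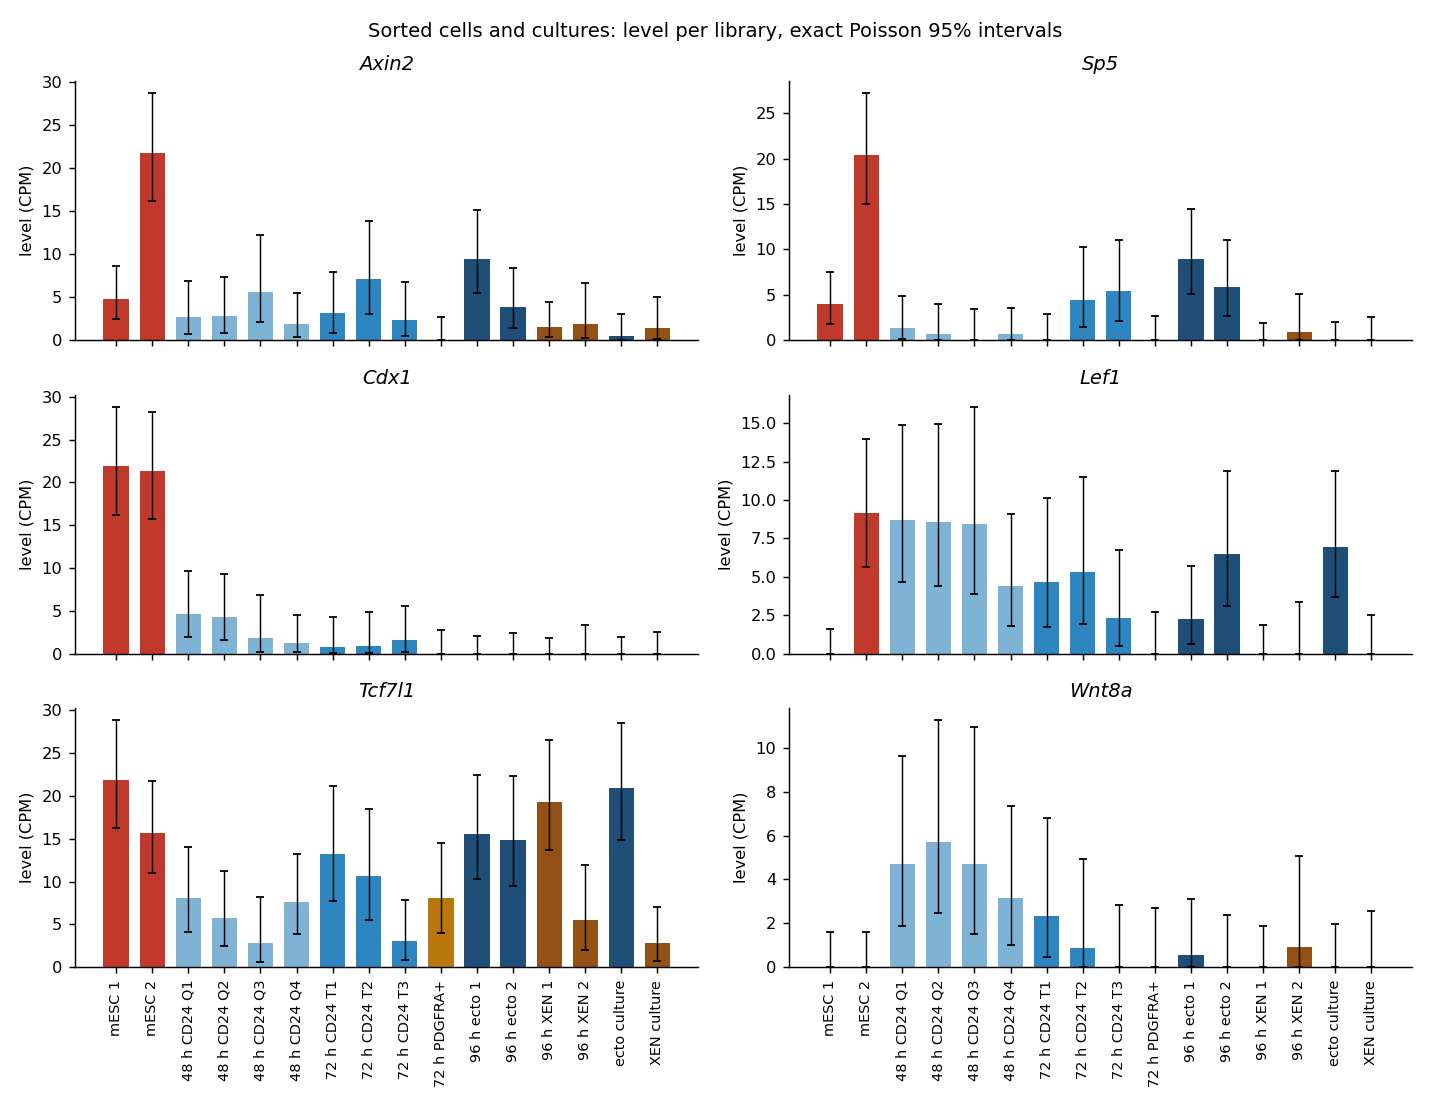
Level in CPM of 6 members in each mESC, sorted and cultured bulk library, with exact Poisson 95% intervals for counting error. Cdx1 is at 21.9 and 21.3 CPM in mESCs and at 0 in the sorted 96 h libraries, Sp5 and Axin2 are higher in the 2 ectoderm-like than in the 2 XEN-like libraries, Wnt8a is highest in the 48 h fractions, and Tcf7l1 is present in every bar.

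The other genes of the pathway, 92 from ligands to nuclear cofactors, were higher in some cases and lower in others. At 24 h 25 of them were measurable against mESC replicate 1, of which 5 were 2-fold higher and 3 lower, where all genes gave 9.77% and 6.13%. Against replicate 2 there were 27, with 2 higher and 5 lower, where all genes gave 13.9% and 8.7%. The receptor gene *Fzd10* stood at 10.1 and 10.9 CPM in mESCs and at 1.96, 2.64 and 1.49 CPM at 6, 12 and 24 h, lower than both references. *Sfrp1*, a secreted Wnt antagonist, stood at 21.9 and 62.7 CPM in mESCs and at 5.48 CPM at 24 h. *Porcn* was 2-fold higher than both references at 24 h, with 32 UMIs against 17 and 3. The receptor gene *Fzd5* was 2-fold lower than both, with 20 UMIs against 48 and 51. *Fzd7*, *Amer1* and *Lgr4* were 3.64, 3.42 and 3.09 times mESC replicate 1 at 24 h and 1.02, 0.542 and 0.836 times replicate 2, so that the direction of *Amer1* and *Lgr4* turned with the reference and *Fzd7* was level with replicate 2.

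Of 5 pluripotency genes known to be repressed by TCF7L1, *Klf2* stood at 224 and 444 CPM in mESCs and at 118, 69.6 and 18.4 CPM at 6, 12 and 24 h. *Tfcp2l1* stood at 137 and 239 CPM and then at 102, 46.7 and 20.9 CPM. *Nanog* instead was at 163 and 155 CPM in mESCs and 382 CPM at 24 h, whereas its SMART-seq2 mean was 267 normalized RPKM at 0 h and 142 at 24 h. *Nr0b1* stood at 260 and 232 CPM in mESCs and 503 CPM at 6 h. At 24 h it held 240 UMIs, against 595 and 532 in mESCs. By the 2-fold rule it was then lower than mESC replicate 1 but not replicate 2. *Esrrb*, a direct target by which GSK3 inhibition is known to sustain self-renewal, stood at 66.1 and 80.1 CPM in mESCs, 59.2 CPM at 6 h and 17.9 CPM at 24 h. In the sorted cells 4 of the 5 fell in ectoderm-like cells against mESCs by edgeR, where 9.3% of all genes fell, and 5 of the 5 in XEN-like cells, where 10.5% did. *Esrrb* and *Nr0b1* had at most 4 UMIs in any sorted library and so passed the filter on low counts through mESCs, where they are high. Nothing is therefore read from these counts against the shares over all genes. The log2 fold changes in ectoderm-like cells were -6.52 for *Klf2* (adjusted p = 1.68e-05, edgeR) and -6.12 for *Tfcp2l1* (adjusted p = 2.42e-05, edgeR). *Klf2* was higher in XEN-like than in ectoderm-like cells, at 25.9 and 11.8 against 3.89 and 5.17 CPM (adjusted p = 0.0219, edgeR), a call lost without either ectoderm-like library or without XEN-like replicate 1, at adjusted p of 0.0764 to 0.207.

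In the sorted cells 40 of the 92 pathway genes could be tested. In ectoderm-like cells 13 rose and 3 fell against mESCs, where all genes gave 9.85% and 9.3%. In XEN-like cells 10 rose and 6 fell, where all genes gave 12.3% and 10.5%. In XEN-like against ectoderm-like cells 2 were higher and 7 lower, where all genes gave 6.99% and 5.74%. *Sp8* and *Frzb*, with no UMI in mESCs, and *Fzd3*, with 5 and 0, passed the filter only through sorted cells. *Sfrp2* and *Fzd2* passed it only through ectoderm-like cells, and *Fzd5* only through mESCs. None of these counts is therefore read against the shares over all genes, though the 3 that fell and the 2 that were higher are near them. Of 11 receptor genes 4 rose and 2 fell in ectoderm-like cells, with a median log2 fold change of 1.63 (0.05 over all genes), and 2 rose and 2 fell in XEN-like cells, with a median of 0.59 (-0.06 over all genes). Of 6 antagonist genes, not all of them secreted, 3 rose in ectoderm-like cells (median 3.12), and 3 rose and 1 fell in XEN-like cells (median 2.71). The 18 other ligand genes were too sparse to test. *Sp8*, a relative of *Sp5*, had no UMI in mESCs and stood at 11.1 and 21.97 CPM in ectoderm-like and 16.8 and 16.4 CPM in XEN-like cells. *Fzd3*, a receptor gene, stood at 2.19 and 0 CPM in mESCs and 61.7 and 56.2 CPM in ectoderm-like cells, a log2 fold change of 5.37 (adjusted p = 0.000177, edgeR). *Dkk1*, the secreted inhibitor of the LRP co-receptors, stood at 7.00 and 3.48 CPM in mESCs, 6.11 and 36.8 CPM in ectoderm-like cells and 180 and 159 CPM in XEN-like cells. It was higher in XEN-like than in ectoderm-like cells, by a log2 fold change of 3.08 (adjusted p = 0.00696, edgeR), as was *Ctnnbip1*, an inhibitor of β-catenin binding to TCF, by 1.92 (adjusted p = 0.0107, edgeR). The latter call was lost without either ectoderm-like library or without XEN-like replicate 2, at adjusted p of 0.0503 to 0.114.

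The secreted antagonists *Sfrp1* and *Sfrp2* and the receptor genes *Fzd2* and *Fzd3* were lower in XEN-like than in ectoderm-like cells. *Sfrp2* stood at 42.8 and 35.5 CPM in ectoderm-like and 1.02 and 0 CPM in XEN-like cells, a log2 fold change of -5.70 (adjusted p = 0.00115, edgeR). With 1 and 5 UMIs in mESCs, it passed the filter on low counts through the ectoderm-like libraries alone, where it is high, as did *Fzd2*. *Sfrp1* gave -4.00 (adjusted p = 0.0132, edgeR), and its call was lost when any single sorted library but ectoderm-like replicate 1 was left out, with adjusted p of 0.0587 to 0.0967. *Sfrp5* rose in both sorted types, at 35.6 and 9.69 CPM in ectoderm-like and 34.03 and 0.91 CPM in XEN-like cells against 0.44 CPM in each mESC library. Without XEN-like replicate 1 its log2 fold change in XEN-like cells was 0.91 (adjusted p = 0.792, edgeR). *Frzb*, another secreted antagonist with no UMI in mESCs, stood at 3.33 and 3.23 CPM in ectoderm-like and 6.60 and 5.47 CPM in XEN-like cells (adjusted p = 0.0167 and 0.00342, edgeR), and the first of these calls was lost when any of 5 libraries was left out, all but XEN-like replicate 1, at adjusted p of 0.0544 to 0.0997.

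Genes whose level followed that of a member over the 25 bulk libraries were found by Pearson correlation of log2(CPM + 1) among 10517 genes, for the 5 members with at least 100 UMIs. The libraries include consecutive times and fractions of the same cultures, so these values describe likeness only. For *Cdx1* they were *Ildr1* (r = 0.91), *Dpys* (0.90) and *Myh13* (0.90), and for *Axin2* they included *Fzd10* (0.75) and *Sp5* (0.74). For *Sp5* they were *Fxyd6*, *Grsf1* and *Tamm41* (0.76 each), for *Lef1* *Snhg8* (0.81), *Cpne9* (0.78) and *Gm10190* (0.77), and for *Tcf7l1* *Ube2c* (0.81), *Smtn* (0.81) and *Dlgap5* (0.80). *Sp5* thus ranked 3 among the genes nearest to *Axin2*, and *Axin2* ranked 4 among those nearest to *Sp5*.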

How the data were processed

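The authors counted UMIs per gene in the 25 bulk libraries and 9 SCRB-seq plates after aligning reads with BWA 0.7.4 to mouse transcripts (mm10), and these counts were deposited unnormalized. The SMART-seq2 values are RPKM that the authors made with TopHat and Cuffnorm, and carry no depth. Of the 23481 genes, 2 with damaged values were left out, and RPKM written with a decimal comma were read as decimals. Only wells above 2000 UMIs were kept, without a doublet caller.

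Sorted cells and mESCs were compared by edgeR 4.0.16 (TMM, filterByExpr, 6 libraries, adjusted p under 0.05), tested on simulated data first, and again by DESeq2 1.42.0. The study's methods call the libraries of the 3 groups biological replicates. Conditions with 1 library have no p: ratios have exact 95% intervals, and a 2-fold rule needed 20 UMIs in both libraries together (SMART-seq2: a mean of 1 at either time). Alternatives changed scaling, filters, reference, depth limits and libraries.

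The members and gene lists were chosen with earlier results of these data known. Of the listed pathway genes, up to 4 per direction with the largest change past the test or rule were named, and all 10 members throughout. Promoter windows came from RefSeq. Of the genes most like a member, 1 is not reported here.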

Additional observations from a re-analysis of the deposited data

How the results depend on the processing

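The count of genes called moved between 885 and 1750 for ectoderm-like cells against mESCs, 1270 and 1956 for XEN-like cells against mESCs, and 269 and 1372 for the XEN-like against ectoderm-like contrast when 1 library was left out, from 1713, 2042 and 1139 with all 6. Members called moved between 1 and 3, 1 and 4, and 0 and 2. Without a filter on low counts 2 members, *Lef1* and *Sp5*, were called in the last contrast. Over the same omissions the log2 fold change in ectoderm-like cells against mESCs turned direction, with the turned value past no threshold in each case, for *Lef1* (-1.44 to 0.26, the latter without ectoderm-like replicate 1), *Axin2* (-2.05 to 0.18) and *Sp5* (-1.83 to 0.60, both latter without mESC replicate 2), and for *Tcf7l1* in the XEN-like against ectoderm-like contrast (-1.22 to 0.35, the latter without XEN-like replicate 2). The cause was not tested. DESeq2 called 1212, 1545 and 779 genes. Same-numbered sorted libraries deviated together with a correlation of 0.33 over 8947 genes, but the labels name no shared culture, and a replicate block gave 1972, 2400 and 1341 genes and 1, 3 and 0 members.

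In the bulk time course at 6, 12, 24 and 96 h, 1 member was lower than mESC replicate 1 each time. With mESC replicate 2 the count was 4, 4, 3 and 4, as with both libraries summed, a reference chosen after seeing the data. A count minimum of 10 gave 2 at 6, 12 and 24 h, and no minimum gave 3, 5, 4 and 3. Over all genes 299, 341, 488 and 716 were lower. The counts were 603 and 734 at 6 and 12 h with replicate 2, 542 and 648 with both, 588, 604 and 742 at 6, 12 and 24 h with a minimum of 10, 2176, 1995, 2042 and 2463 with none, and 822, 870, 947 and 1166 at a fold of 1.5. TMM factors shifted every log2 ratio to mESC replicate 1 by -0.34 at 96 h and changed no member's call at the 4 times. Members below about 20 UMIs could not be called at this depth. Leaving out SCRB-seq wells above 20000 UMIs was also chosen after seeing the data.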
